A study of Mus musculus with 4 samples.

Results

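Pancreatic ductal cells were picked out of 4 single-cell RNA libraries of mouse pancreatic islets by their counts of 5 genes, Spp1, Clu, Mgst1, Dcdc2a and Sh2d4a. A barcode was kept when it held 500 or more counts from 250 or more genes, with no more than 25% of them mitochondrially encoded. It was then called ductal when the 5 genes together held 8 or more counts and 0.3% or more of all its counts, the hormone genes Ins1, Ins2, Gcg and Sst together under 3%, the endothelial genes Kdr, Cdh5, Pecam1 and Plvap together under 3 counts, and the collagen genes Col3a1 and Col1a2 together under 5 counts. The rule found 260 ductal cells among 6566 kept cells. These genes chose the cells, so their levels are a description.

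The series compares islets labelled Sin3A mutant with islets labelled WT, and its design text gives 2 biological replicates. Libraries with titles ending in _2426 are called set A and those ending in _3165 set B, so the 4 libraries are mutant A, mutant B, WT A and WT B. Sin3A is a scaffold protein that holds histone deacetylases and brings them to genes. The allele, the driver of any deletion, the strain, the age, the sex and any pooling of animals are not given in the labels, and neither is the meaning of the title endings. In every pair of values below, the first is from the library of set A and the second from that of set B. CPM means counts per 1000000 counts summed over the cells named.

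The exocrine ducts of the pancreas drain the enzymes of acinar cells and add a fluid rich in bicarbonate, driven by chloride channels such as Cftr. Duct cells are a polarized epithelium with simple keratins, tight junctions and a primary cilium, and they keep the transcription factor Sox9 that marks the embryonic progenitors of ducts and islets. In embryos, Notch signalling holds such progenitors back from the endocrine fate that Neurog3 starts. Islets are isolated from digested pancreas, and such preparations can carry duct fragments.

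Sin3a, the targeted gene, was low and went against one label. In ductal cells it had 125 and 23.1 CPM in the libraries labelled mutant and 44.4 and 73.8 CPM in those labelled WT. Those levels came from 11 and 17 counts in the libraries labelled mutant and from 7 and 25 counts in those labelled WT. The exact 95% Poisson intervals, which cover counting error only, were 62.5 to 224 CPM and 13.4 to 36.9 CPM in the libraries labelled mutant, against 17.8 to 91.4 CPM and 47.8 to 109 CPM in those labelled WT. Mutant over WT was 2.82 within set A and 0.312 within set B, so the library labelled mutant A was the highest of the 4 and the library labelled mutant B the lowest, and the labels overlapped. All 11 counts of the library labelled mutant A came from 3 cells. The other kept cells had the same order, with 53.3 and 21.2 CPM in the libraries labelled mutant and 27.3 and 42.4 CPM in those labelled WT. Directions between genotypes are therefore given for libraries as labelled, and whether a count falls in a deleted stretch of Sin3a was not tested.

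**Figure D1:**
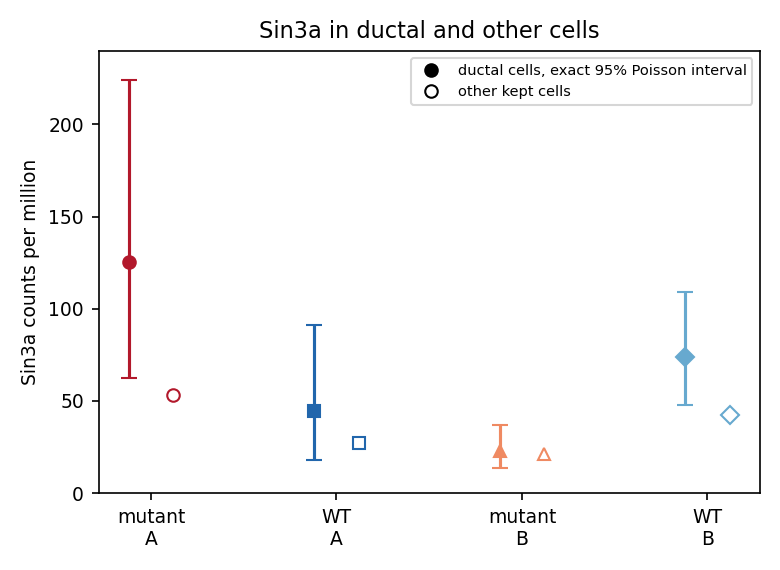
Sin3a in CPM by library. Filled symbols are sums over ductal cells with exact 95% Poisson intervals, and open symbols are the other kept cells; the library labelled mutant A sits highest at 125 CPM and the library labelled mutant B lowest at 23.1 CPM.

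The ductal cells were spread unevenly over the libraries. The libraries labelled mutant gave 13 and 165 ductal cells with 87838 and 737481 counts in all, and those labelled WT gave 27 and 55 cells with 157791 and 338579 counts. The median ductal cell held 6920 and 4006 counts in the libraries labelled mutant, and 6035 and 4762 in those labelled WT. A level in the library labelled mutant A thus rests on the fewest cells. No barcode was called ductal in 2 libraries, and each pair of libraries shared 10 to 39 kept barcodes. Whether a ductal barcode was a kept cell of another kind in a further library was not tested. Of 40 kept cells that Scrublet called doublets, 1 was ductal.

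Most of the chosen cells carried several of these marker genes. In the library labelled mutant B, some cells passed on Spp1 alone, with 31, 23, 26 and 18 counts. Hormone genes made up 2.47%, 1.66%, 1.31% and 2.30% of their counts. Mitochondrially encoded genes made up 10.1%, 11.3%, 10.6% and 9.82%, beside a median of 5.65% over the ductal cells of that library. The stricter hormone limit of 1% used further below leaves these cells out, and what they are was not tested. Spp1, which encodes the secreted phosphoprotein osteopontin, had 5146 and 4604 CPM in the libraries labelled mutant and 6160.1 and 3503 CPM in those labelled WT. Clu, which encodes the secreted chaperone clusterin, had 4804 and 1577 CPM in the libraries labelled mutant and 3955 and 2129 CPM in those labelled WT. Both Clu levels of set A lay above both of set B, whatever the label. Sh2d4a, an adaptor with an SH2 domain, ran the other way, with 137 and 625 CPM in the libraries labelled mutant and 114 and 662 CPM in those labelled WT. Dcdc2a, a microtubule-binding doublecortin family member, had 398 and 800.0 CPM in the libraries labelled mutant and 361 and 626 CPM in those labelled WT, and Mgst1, a microsomal glutathione transferase, had 376 and 391 CPM in the libraries labelled mutant and 621 and 440.1 CPM in those labelled WT. The 242 ductal cells with at least 2000 counts were each thinned to 2000 counts. Of them, 87.2% held 3 or more of the 5 genes and 21.9% held all 5. Of 3900 hormone-rich cells, 0.641% and 0.0513% did. The rule asks for counts of these same genes, so this contrast follows from the choice of cells.

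**Figure D2:**
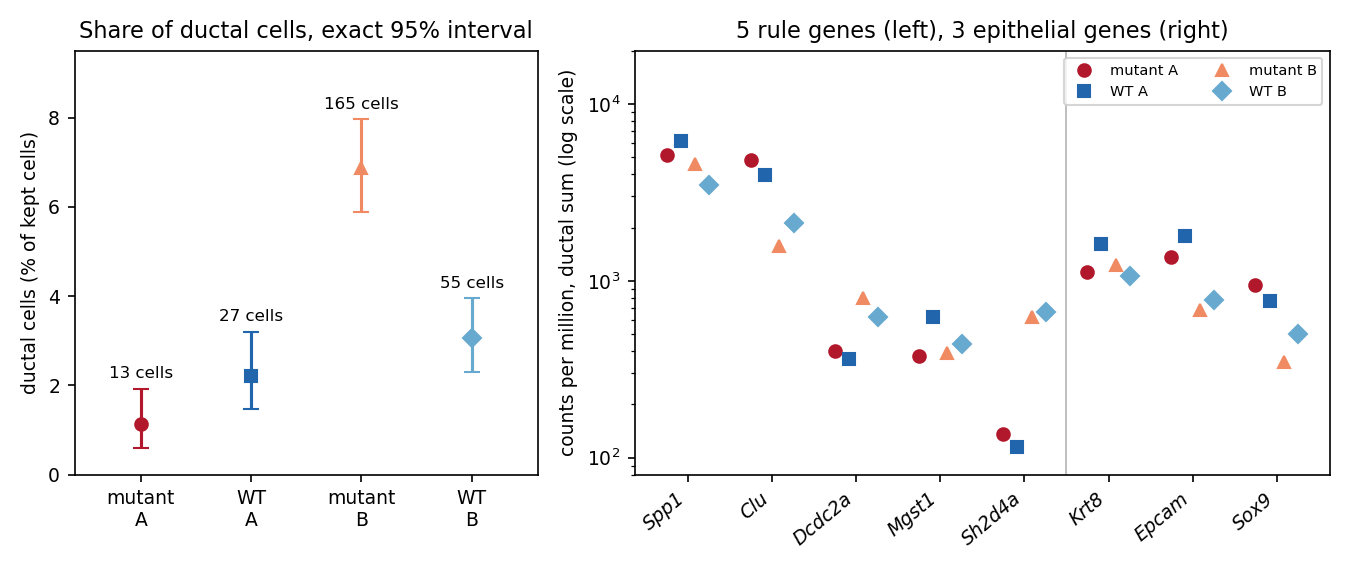
Left, ductal cells as a percentage of kept cells in each library with the exact 95% binomial interval and the number of cells. Right, CPM in the ductal sums on a log scale for the 5 rule genes and for 3 epithelial genes outside the rule; Clu and Epcam sit higher in both libraries of set A and Sh2d4a in both of set B.

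The label was checked against duct markers that the rule did not use. Of 10 further ductal markers, all 10 were detected. Their summed level was 5419 and 3494 CPM in ductal cells of the libraries labelled mutant and 6065 and 3659 CPM in those labelled WT, while the other kept cells of the 4 libraries had 738 to 1067 CPM. Sox9, the transcription factor that marks ducts, had 945 and 347 CPM in the libraries labelled mutant and 767 and 502 CPM in those labelled WT, and the other cells had 13.9 to 20.2 CPM. Krt19, a keratin often used to mark ducts, had 79.7 and 42 CPM in the libraries labelled mutant and 127 and 70.9 CPM in those labelled WT, against 0.714 to 5.02 CPM in the other cells. Cftr, the chloride channel, reached only 18 to 34 CPM, from 3 to 25 counts a library. Anxa4 and Krt7 of the same list were frequent in hormone-rich cells as well. Without thinning and with the libraries pooled, Anxa4 was in 79.6% of ductal and 74.8% of hormone-rich cells, and Krt7 in 58.8% and 42.3%. In the library labelled mutant B alone, Anxa4 was in a smaller share of ductal than of hormone-rich cells, 78.2% against 81.2%. The median cell of those parts held 4006 and 5815 counts. In the library labelled mutant A, Krt7 was in 30.8% of ductal and 52.7% of hormone-rich cells, and Cftr in 7.69% and 10.3%. The median cell there held 6920 and 8378 counts. In each of the other libraries Krt7 and Cftr were in a larger share of ductal cells. Tspan8 was listed at 0 in the library labelled mutant A.

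Markers of other cell types were also counted in ductal cells. The 15 acinar markers summed to 22.8 and 4370.3 CPM in the libraries labelled mutant and to 44.4 and 47.3 CPM in those labelled WT, against 50.4 to 1911 CPM in the other kept cells. In the library labelled mutant B that sum was above the 3494 CPM of the 10 duct markers, and the few cells that held it are described with the interaction test. Of the 6 Schwann cell markers 4 were detected, with sums of 194 and 271 CPM in the libraries labelled mutant and 171 and 272 CPM in those labelled WT, against 45.2 to 69.6 CPM in the other cells, and Sox10 and Gfap were at 0. The 7 endothelial genes summed to 34 and 18 CPM in the libraries labelled mutant and to 25 and 30 CPM in those labelled WT, with Pecam1 and Cldn5 at 0 in every library; Kdr, Cdh5, Pecam1 and Plvap were in the rule. Of the 11 mesenchymal genes, Sparc, a matrix protein, made up most of the sum with 1605 and 1703 CPM in the libraries labelled mutant and 1806 and 1864 CPM in those labelled WT, while Pdgfrb had 1 count over all 4 libraries. Beta cell markers summed to 2152 and 2589 CPM in the libraries labelled mutant and to 3080 and 1619 CPM in those labelled WT, and Mafa was at 0. After thinning, 74.4% of ductal cells held a Gcg count and 49.6% an Ins1 count, against 66% and 59.5% of 585 collagen-rich cells and 63.2% and 59.5% of 247 endothelial cells. Unthinned, the shares with Gcg and Ins1 were 88.1% and 70.4% of ductal, 78.6% and 69.5% of collagen-rich and 81.3% and 75.8% of endothelial cells. Collagen-rich and endothelial cells should lack the hormones. Their order against ductal cells was not the same in every library. Thinned, Ins1 was in 76.9% and 36.2% of ductal cells in the libraries labelled mutant and in 88.9% and 62% in those labelled WT, against 93.8% and 35.5% of endothelial cells in the libraries labelled mutant and 85.7% and 62.7% in those labelled WT. Neither hormone share is read as expression by ductal cells, and the part of free RNA was not tested.

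Cells near the limits of the rule were mostly in set B. With fewer than 16 marker counts there were 1 and 31 ductal cells in the libraries labelled mutant and 0 and 6 in those labelled WT. A sum of 4 epithelial genes, Epcam, Krt8, Krt18 and Sox9, stood at 2289 CPM in the 31 such cells of the library labelled mutant B and at 2685 CPM in its other ductal cells. In the 25 cells of that library that fell short of the marker limits but held 4 or more marker counts and 0.15% or more, it stood at 801 CPM. The hormone limit took out 0 and 7 cells that passed the marker limits in the libraries labelled mutant and 4 and 23 in those labelled WT.

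A set of genes stood far above the other kept cells of the same library in all 4 libraries. Of 1741 genes with at least 10 ductal counts in every library, 150 (8.62%) were at least 4-fold higher in ductal cells in each library. No test applies, because the cells were chosen by measured values. The count minimum was set by the smallest sum, and without the library labelled mutant A the number was 265. Muc1, a membrane mucin of apical surfaces, had 273 and 225 CPM in the libraries labelled mutant and 374 and 269 CPM in those labelled WT, 47.8 to 178 times the level in the other cells. Scara3, a class A scavenger receptor, had 433 and 856 CPM in the libraries labelled mutant and 589 and 948 CPM in those labelled WT, 38.8 to 140.1 times that level. Both genes kept every ductal sum above 200 CPM, and the pooled other cells stayed below 25 CPM in every library. Among those other cells, the collagen-rich ones had 137 CPM of Scara3 in the library labelled mutant B and 103 CPM in that labelled WT B. The other genes named here from the first 15 included Efemp1, an extracellular matrix glycoprotein (58.8 to 333 times), Ces1d, a carboxylesterase (30.2 to 319.8 times), Gsta3, a glutathione transferase (37 to 117 times), and Fgfr3, a fibroblast growth factor receptor (19.6 to 78.1 times). Ppp1r1b, an inhibitor of protein phosphatase 1, Fermt1, an integrin activator, Tstd1, Fam198a, Fjx1, Wfdc15b, Tmem45a and Sox9 were also among them.

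**Figure D3:**
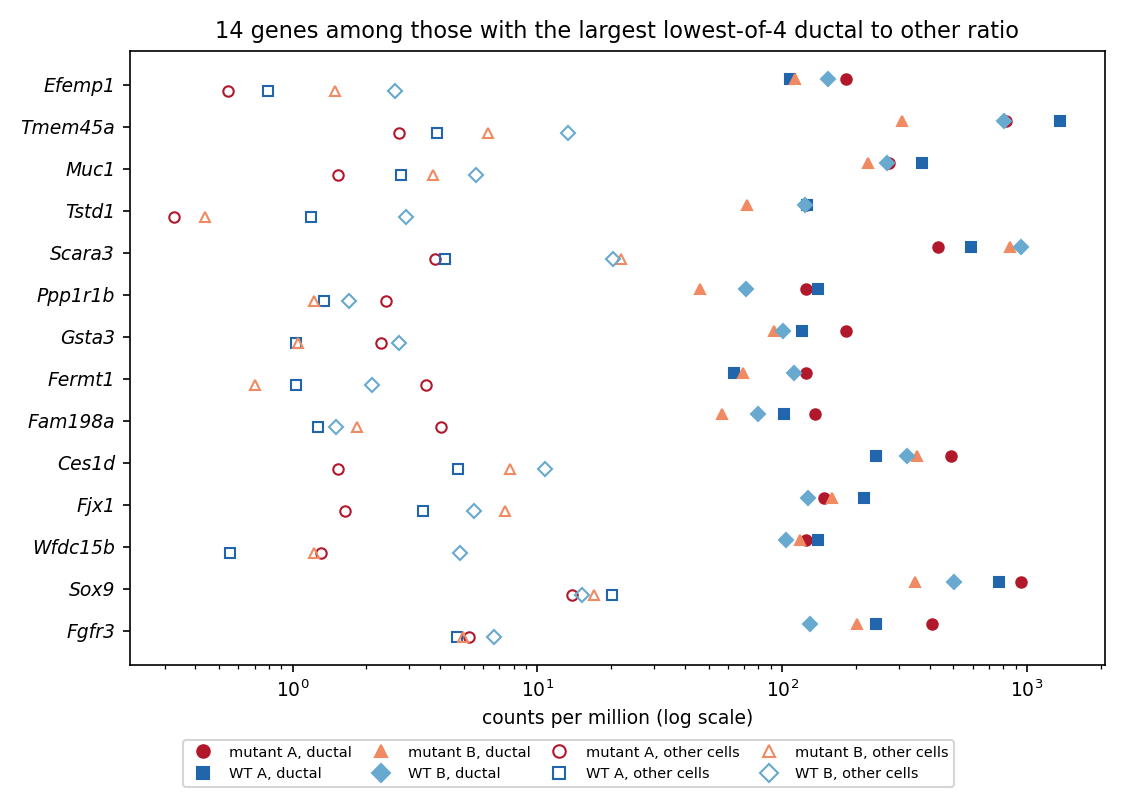
CPM on a log scale for 14 of the 15 genes with the largest lowest-of-4 ratio of ductal to other kept cells. Filled symbols are ductal sums and open symbols the other kept cells of the same library; each gene's 4 filled symbols lie right of its 4 open ones, for example 225 to 374 CPM against 1.53 to 5.63 CPM for Muc1.

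Promoter sequence is shown for 2 of these genes, because motifs of factors active in epithelia occur there. The sequences are the 250 bases before the start site, 5′ to 3′ on the gene's strand, from RefSeq on GRCm38.p6, with each match to the named motif in capitals.
Muc1: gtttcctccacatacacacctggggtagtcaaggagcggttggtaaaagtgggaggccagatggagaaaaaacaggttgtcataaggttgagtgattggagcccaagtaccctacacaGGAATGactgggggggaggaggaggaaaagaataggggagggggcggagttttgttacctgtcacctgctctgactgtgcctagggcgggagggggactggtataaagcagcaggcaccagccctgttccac
Cldn4: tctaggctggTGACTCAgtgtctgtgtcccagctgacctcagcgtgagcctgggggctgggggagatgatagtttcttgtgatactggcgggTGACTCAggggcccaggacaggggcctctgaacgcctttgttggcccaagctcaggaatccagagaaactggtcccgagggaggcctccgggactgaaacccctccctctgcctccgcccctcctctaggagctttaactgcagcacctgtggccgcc
The Muc1 window is chr3:89228806-89229055, plus strand, and the Cldn4 window is chr5:134946935-134947184, minus strand. Capitals mark GGAATG, a core of TEAD factors, in Muc1, and TGANTCA, a core of AP-1 factors such as Fos and Jun, in Cldn4. Both strands were searched in windows of 300 bases that run 50 bases past the start, and no motif overlaps another here. The AP-1 core was in 15.2% of the 99 genes of the 150 that matched the table, against 6.11% of the 1342 measured genes that matched and 8.97% of all 27025 genes in it. The TEAD core was in 23.2% of the 99, against 15.9% of the measured genes and 16.6% of all. A match is a description of letters, and these 2 genes were chosen because they hold one.

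Among transcription factors, 4 of 6 duct factors with enough counts were at least 4-fold above the other cells in every library, beside 8.62% of all measured genes. They were Sox9, Hes1, Ehf and Id2. Hes1, a repressor switched on by Notch, had 444 and 285 CPM in the libraries labelled mutant and 963 and 213 CPM in those labelled WT, so the library labelled WT A was the highest and the labels overlapped. Onecut1, an early pancreatic factor, had 102 and 47.5 CPM in the libraries labelled mutant and 57 and 50.2 CPM in those labelled WT, from 9 to 35 counts a library, against 0.525 to 0.765 CPM in the other cells. Nkx6-1, a beta cell factor, stayed lower in ductal cells, at 27 to 82 CPM against 246 to 557 CPM in the others.

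Among the gene lists used here, the epithelial one gave the most 4-fold genes, and with 30 members it was also the longest. Of 20 keratins, junction and adhesion genes with enough counts, 13 were at least 4-fold above the other cells in all 4 libraries, beside the 8.62% of all genes. Cldn3, a tight junction claudin, had 501 and 669.8 CPM in the libraries labelled mutant and 564 and 614 CPM in those labelled WT, and the other cells had 14.5 to 32.4 CPM. Cldn4, whose promoter is printed above, had 387 and 172 CPM in the libraries labelled mutant and 387 and 195 CPM in those labelled WT, 7.32 to 12.5 times the other cells. Krt8, a simple keratin, had 1116 and 1233 CPM in the libraries labelled mutant and 1609.7 and 1060.3 CPM in those labelled WT, 5.02 to 9.17 times the other cells. Epcam, an adhesion molecule, had 1355 and 682 CPM in the libraries labelled mutant and 1781 and 779.7 CPM in those labelled WT, with both values of set A above both of set B. Ezr, which links the apical membrane to actin, was the reverse, with 353 and 957 CPM in the libraries labelled mutant and 368 and 1169.6 CPM in those labelled WT.

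Of 5 measurable genes for fluid and bicarbonate secretion, 0 reached 4-fold in every library, beside 8.62% of all measured genes. A count of 0 in so few genes cannot be told from that share. Atp1b1, a subunit of the sodium pump, had 1617 and 925 CPM in the libraries labelled mutant and 1477 and 779.7 CPM in those labelled WT, 2.07 to 5.2 times the other cells. Car2, a carbonic anhydrase that supplies bicarbonate, had 137 and 216 CPM in the libraries labelled mutant and 177 and 159 CPM in those labelled WT, 3.71 to 93.2 times the other cells, lowest in the library labelled WT B. Slc4a4, the sodium bicarbonate cotransporter, stood at 32 to 65 CPM. Aqp5, Sctr and the other members fell below the count minimum of 10 in at least 1 library.

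Genes of the primary cilium were mixed. Bicc1, an RNA-binding protein whose loss gives kidney cysts in mice, had 1298 and 1672 CPM in the libraries labelled mutant and 1578 and 1415 CPM in those labelled WT, against 75.8 to 129 CPM in the other cells. Pkhd1, the gene of recessive polycystic kidney disease, had 171 and 104 CPM in the libraries labelled mutant and 127 and 130.0 CPM in those labelled WT, 16.2 to 36.3 times the other cells. Pkd2, a cation channel of the cilium, had 307 and 354 CPM in the libraries labelled mutant and 247 and 422 CPM in those labelled WT, only 2.8 to 6.11 times the other cells. Foxj1, a factor for motile cilia, had 32 to 56 CPM from 4 to 31 counts a library.

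Of 4 measurable Notch and endocrine progenitor genes, Hes1 and Sox4 passed 4-fold in every library, beside 8.62% of all measured genes. Sox4, a factor of progenitors, had 968 and 679 CPM in the libraries labelled mutant and 659 and 756 CPM in those labelled WT. Notch2, a receptor, had 56.9 and 125 CPM in the libraries labelled mutant and 133 and 133 CPM in those labelled WT, from 5 to 92 counts a library. Neurog3, which starts the endocrine program, had 7 and 4 counts in the libraries labelled mutant and 2 and 0 in those labelled WT. All 7 counts of the library labelled mutant A came from 1 cell. After thinning it was in 0.826% of ductal cells and in 1.54% of hormone-rich cells, and unthinned in 2.31% and 4.12%, with the libraries pooled. The order was not the same in every library. Unthinned, ductal cells had 7.69% and 1.82% in the libraries labelled mutant and 7.41% and 0% in those labelled WT. Hormone-rich cells had 3.23% and 5.75% in the libraries labelled mutant and 5.73% and 2.41% in those labelled WT.

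Of 7 measurable secreted and stress genes, Cyr61, Ctgf, Ambp and Wfdc15b were 4-fold above the other cells in every library, beside 8.62% of all measured genes. Cyr61, a matricellular protein and YAP target, had 2345 and 785 CPM in the libraries labelled mutant and 1641 and 1099 CPM in those labelled WT, 9.39 to 70.5 times the other cells. Ctgf, another YAP target, had 239 and 164 CPM in the libraries labelled mutant and 101 and 174 CPM in those labelled WT, 4.44 to 23.3 times the other cells. Both were highest in the library labelled mutant A. Mt1 and Mt2, metallothioneins that bind zinc and copper, had 535 and 401 CPM in the libraries labelled mutant and 1236 and 313 CPM in those labelled WT for Mt1, and 865 and 683 CPM in the libraries labelled mutant and 1762 and 599.6 CPM in those labelled WT for Mt2, with the library labelled WT A highest for both. Of 11 measurable detoxification genes 4 were 4-fold above the others in all libraries, again beside 8.62% of all measured genes. They were these 2 metallothioneins, Gsta3 and Ephx1, an epoxide hydrolase.

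Immediate early genes respond within minutes to stimuli that include tissue dissociation. Of 19 measurable ones, 3 were 4-fold above the other cells in every library, beside 8.62% of all measured genes. That gap was not tested. Atf3, a stress factor, had 1559.7 and 2079 CPM in the libraries labelled mutant and 1369 and 2664 CPM in those labelled WT, Ier3, an early response gene, had 854 and 1090.2 CPM in the libraries labelled mutant and 709.8 and 1075 CPM in those labelled WT, and Klf6, a zinc finger factor, had 990.5 and 1333 CPM in the libraries labelled mutant and 894 and 1429.5 CPM in those labelled WT. Those 3 ratios were 8.69 to 14.4 times, 12.3 to 21.4 times and 5.12 to 12.2 times. Fos was 1.79 to 3.51 times the other cells, Jun 3.01 to 5.5 times and Egr1 2.37 to 3.78 times. The mitochondrially encoded genes had a median lowest ratio of 0.618 over 11 genes, beside 1.16 over all 1741. None of the 15 measurable cell cycle genes or 6 class I and interferon genes was 4-fold higher in every library. The same held for the 9 Sin3 complex genes and the 12 metabolic genes, beside 8.62% of all measured genes. Each of these lists is by itself too short to tell such an absence from that share.

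The ductal cells differed among themselves within these limits. After thinning, Spp1 was in 98.8% of ductal cells, Bicc1 in 94.6%, Cdh1, the epithelial cadherin, in 86% and Sox9 in 57%. Hormone-rich cells held them in 8.05%, 15.8%, 41.8% and 3.21%. Unthinned, every ductal cell held Spp1, and the shares of the others were 97.3%, 95.8% and 76.9%. These shares pool the cells of the 4 libraries, and 165 of the 260 ductal cells came from the library labelled mutant B. By library, unthinned Sox9 was in 100% and 69.1% of ductal cells in the libraries labelled mutant. It was in 88.9% and 89.1% in those labelled WT. Krt19 was in 11.2% of thinned ductal cells and Cftr in 2.89%, against 0.641% and 1.64% of hormone-rich cells, again with the libraries pooled. A missing count in a thinned cell does not show that the gene is silent there. At least 2 counts over 8 cycling genes were in 23.1% of ductal, 20.2% of collagen-rich and 14.3% of hormone-rich cells, and free RNA from dividing cells was not tested as a part of these shares.

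Ductal cells made up 1.13% and 6.88% of kept cells in the libraries labelled mutant, with exact 95% intervals of 0.605 to 1.93% and 5.90 to 7.97%. They made up 2.21% and 3.06% in those labelled WT, with intervals of 1.46 to 3.20% and 2.31 to 3.96%. The means were 4.01% ± 4.06 in the libraries labelled mutant and 2.63% ± 0.596 in those labelled WT (SD, n = 2 each). The share was lower in the library labelled mutant within set A and higher within set B, and the groups overlapped. The difference of 1.37 percentage points gave p = 1 in a two-sided exact permutation test, whose smallest possible p with 2 libraries against 2 is 0.33. Without the library labelled mutant B the difference was -1.50 points. Thinned to 2000 counts the shares were 1.41% and 6.98% in the libraries labelled mutant and 2.43% and 2.79% in those labelled WT.

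In ductal cells no gene passed the test between the genotype labels when the set was left out of the model. Counts summed per library were compared for 5432 genes with edgeR's quasi-likelihood test and Benjamini-Hochberg adjustment, and 0 genes (0%) were higher and 0 (0%) lower at an adjusted p under 0.05. At an unadjusted p under 0.05 there were 18 higher and 6 lower, 0.442% of the genes. DESeq2 also called 0 and 0, with 23 and 4 at an unadjusted p under 0.05. With the set added as a block, edgeR called 3 genes higher and 0 lower, namely Hbb-bs (adjusted p = 9.92e-07), Scg2 (adjusted p = 0.00957) and Bace2 (adjusted p = 0.0218). Hbb-bs had 0 ductal counts in both libraries of set A, and 1 cell held 350 of its 394 counts in the library labelled mutant B. The fit with the block was not repeated without that cell. Leaving out 1 library also changed the count, although 1 library then stood alone and its spread was assumed to be that of the other label. Without the library labelled mutant A the test called 21 higher and 2 lower, without that labelled mutant B it called 2 and 4, without that labelled WT A it called 12 and 0, and without that labelled WT B it called 8 and 1.

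The 5 genes nearest to the threshold on either side did not pass it in the fit without the block. Scg2, a granin of secretory granules, had 79.7 and 297 CPM in the libraries labelled mutant and 44.4 and 41.3 CPM in those labelled WT, a log2 difference of 2.28 ± 0.64 (SE, n = 2 each). In the library labelled mutant B, 1 cell held 109 of the 219 Scg2 counts. With ductal cells limited to hormone counts under 1%, the Scg2 difference was 0.37, and with at most 10% mitochondrial counts it was 0.90 on the log2 scale. Rbp4, a retinol carrier made by delta cells, had 137 and 88.1 CPM in the libraries labelled mutant and 6.34 and 38.4 CPM in those labelled WT (2.08 ± 0.74), and Bace2, a protease of beta cells, had 68.3 and 47.5 CPM in the libraries labelled mutant and 6.34 and 2.95 CPM in those labelled WT (3.64 ± 1.31). All 6 Bace2 counts of the library labelled mutant A came from 1 cell, as did 12 of the 35 in that labelled mutant B, and 1 cell held 6 of the 12 Rbp4 counts in the library labelled mutant A. Under the 1% hormone limit the Rbp4 difference was 2.32, and Bace2 did not pass the count filter. The other kept cells had 1988 to 2908 CPM of Scg2, 466 to 1362 CPM of Rbp4 and 292 to 567 CPM of Bace2, and the part of free RNA in these values was not tested. Slc39a6, a zinc transporter, and Aplp1, an amyloid precursor-like protein, completed the first 5, with 2.21 ± 0.73 and 1.60 ± 0.55. On the lower side Tubb6, a beta tubulin, had 11.4 and 46.1 CPM in the libraries labelled mutant and 82.4 and 127 CPM in those labelled WT (-1.53 ± 0.64). Pmepa1, a TGF-beta target that dampens the pathway, had 34.2 and 54.2 CPM in the libraries labelled mutant and 101 and 136 CPM in those labelled WT (-1.29 ± 0.55). Inafm1, Mrpl33 and Sorl1 followed, and for each of the 5 both values of the libraries labelled mutant lay below both of those labelled WT. All 10 adjusted p-values were 0.9999 by edgeR.

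No gene list had a member past the threshold. Of 14 duct transcription factors tested, 3 were on the higher and 11 on the lower side, with a median log2 difference of -0.25. Of 24 keratin, junction and adhesion genes, 9 were on the higher and 15 on the lower side (median -0.06). Secretion genes split into 9 and 2 (median 0.16), cilium genes into 4 and 4 (median 0.01), and Notch and progenitor genes into 4 and 3 (median 0.22). Detoxification genes split into 9 and 10 (median -0.03), secreted and stress genes into 8 and 2 (0.08), and immediate early genes into 14 and 11 (0.09). Cell cycle genes split into 12 and 15 (-0.10), Sin3 complex genes into 9 and 12 (-0.16), class I and interferon genes into 5 and 4 (0.17), and metabolic genes into 13 and 7 (0.13). Over all 5432 genes, 2688 were on the higher and 2744 on the lower side, with a median of -0.01. The lists are described by these counts, with no test of a list.

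The change with the label was also compared between the sets. Over the 681 genes counted below, the log2 changes within set A and within set B had a correlation of -0.132. How many genes moved 2-fold within 1 set alone was not counted, so the joint counts below do not show by themselves whether changes repeat. Changes were counted relative to the median gene, whose log2 change was 0.080 within set A and -0.036 within set B. Of 681 genes with at least 20 ductal counts in every library, 0 were at least 2-fold higher and 0 at least 2-fold lower in the library labelled mutant within both sets. Fgfr3 came closest on the higher side, with 409.8 and 202 CPM in the libraries labelled mutant and 241 and 130.0 CPM in those labelled WT. Hadh, a mitochondrial enzyme of fatty acid breakdown, had 512 and 498 CPM in the libraries labelled mutant and 209 and 346 CPM in those labelled WT. On the lower side Tmem45a had 819.7 and 309 CPM in the libraries labelled mutant and 1369 and 806 CPM in those labelled WT, Hmgb2, a chromatin protein of dividing cells, had 649 and 179 CPM in the libraries labelled mutant and 1039 and 339.7 CPM in those labelled WT, and Stmn1, a microtubule regulator, had 467 and 557 CPM in the libraries labelled mutant and 856 and 768 CPM in those labelled WT. These genes were picked for their direction, so it is a description. Only Iapp, the gene of amylin, moved 2-fold in opposite directions, with 296 and 1252 CPM in the libraries labelled mutant and 608 and 402 CPM in those labelled WT, and 1 cell held 303 of its 923 counts in the library labelled mutant B. Relative to the median gene, all 10 of the mitochondrially encoded genes counted here were lower in the library labelled mutant within set A. Within set B, 8 of 10 were higher.

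**Figure D4:**
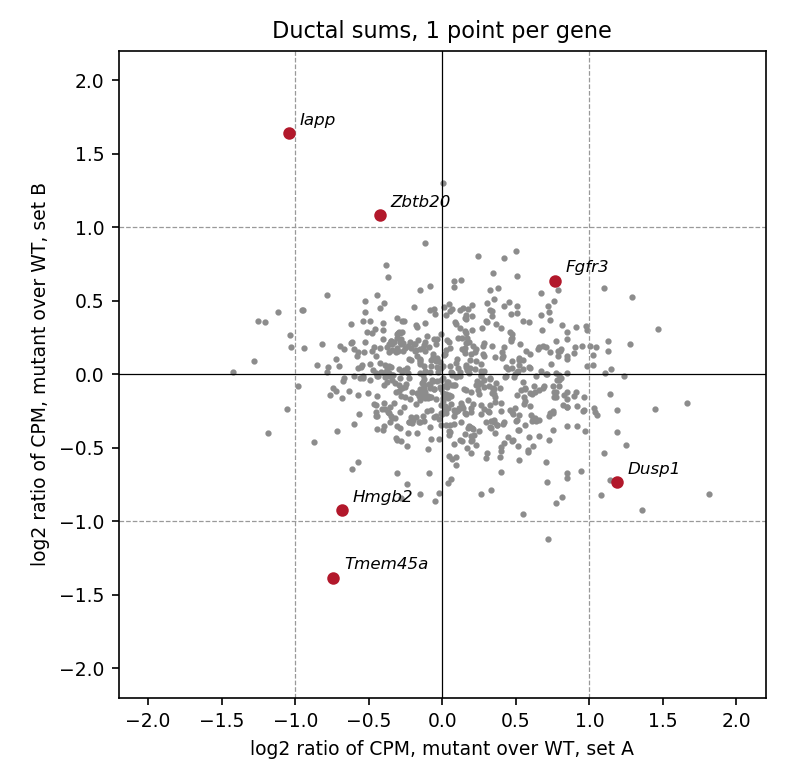
Log2 ratio of CPM, mutant over WT, in ductal sums within set A (x axis) and within set B (y axis), with 1 point for each of 681 genes and dashed lines at 2-fold. The corners for 2-fold change in the same direction hold 0 genes, and Iapp alone lies past 2-fold in both, in opposite directions. These counts were made relative to the median gene, while the ratios are plotted without that step.

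The larger split in ductal cells followed the title ending, set A or set B. Of 795 genes with a mean of at least 200 CPM, 66 (8.3%) had both libraries of one set at least 2-fold above both of the other, 42 higher in set A and 24 higher in set B. By genotype label the same count was 0 (0%), and in endothelial cells it was 1 gene (0.115%). Jund, a subunit of AP-1, had 1719 and 231 CPM in the libraries labelled mutant and 1996 and 204 CPM in those labelled WT, and the other kept cells had 823 and 157 CPM in the libraries labelled mutant and 860.3 and 173 CPM in those labelled WT. Hnrnpf, a splicing regulator, had 1229.5 and 245 CPM in the libraries labelled mutant and 754 and 245 CPM in those labelled WT. Higher in set B were Nr4a1, an immediate early nuclear receptor, with 660.3 and 1775 CPM in the libraries labelled mutant and 849 and 1789.8 CPM in those labelled WT, and Cbx1, a heterochromatin protein, with 239 and 586 CPM in the libraries labelled mutant and 259.8 and 526 CPM in those labelled WT. Ribosomal protein genes stood on both sides. Rpl38 had 842 and 144 CPM in the libraries labelled mutant and 811 and 189 CPM in those labelled WT, while Rps23 had 2220.0 and 7222 CPM in the libraries labelled mutant and 2503 and 5789 CPM in those labelled WT, and near-identical copies of such genes make their counts uncertain. Other cells met the same rule too, with 5.41% of 665 genes in hormone-rich, 5.53% of 795 in collagen-rich and 5.96% of 872 in endothelial cells. The labels do not say whether the sets are litters, days or runs.

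Whether the change with the label differed between ductal cells and the other kept cells was tested directly. An interaction term, with the library as a block, was fitted with edgeR to ductal and other sums of the 4 libraries for 17990 genes. At an adjusted p under 0.05, 15 genes (0.0834%) were higher and 1 (0.00556%) lower in the ductal change than in the change of the others. Of the 15, 11 are products of acinar cells, the enzyme makers of the pancreas. Ctrb1, which encodes chymotrypsinogen B, had 22.8 and 2125 CPM in the libraries labelled mutant and 6.34 and 26.6 CPM in those labelled WT in ductal sums (interaction log2 5.52 ± 0.63, adjusted p = 2.42e-14 by edgeR). Rnase1, the pancreatic ribonuclease, had 0 and 757 CPM in the libraries labelled mutant and 0 and 5.91 CPM in those labelled WT, and Cpa1, a carboxypeptidase, had 0 and 397 CPM in the libraries labelled mutant and 0 and 0 CPM in those labelled WT. In ductal sums each of these was high in the library labelled mutant B alone. The other kept cells varied widely as well. Ctrb1 there had 6.78 and 829 CPM in the libraries labelled mutant and 542 and 212 CPM in those labelled WT. Rnase1 had 5.69 and 343 CPM against 220 and 127 CPM, and Cpa1 had 2.95 and 159 CPM against 162 and 62.7 CPM, in the same order. The hemoglobin genes Hbb-bs, Hbb-bt and Hba-a2 also passed, with 0 and 534 CPM in the libraries labelled mutant and 0 and 44.3 CPM in those labelled WT for Hbb-bs. Nnat, an imprinted gene of endocrine cells, had 45.5 and 175 CPM in the libraries labelled mutant and 63.4 and 14.8 CPM in those labelled WT. The gene on the lower side was Peg10, an imprinted gene, with 0 and 0 CPM in the libraries labelled mutant and 184 and 8.86 CPM in those labelled WT, and 28 of the 29 counts in the library labelled WT A came from 1 cell.

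The 15 higher calls were not made once 10 cells were left out. Those cells were chosen by acinar or hemoglobin marker counts, and the markers include called genes such as Ctrb1, Cpa1 and Hbb-bs. The loss of the acinar and hemoglobin calls, and the lower acinar sum below, therefore largely follow from that choice. In the library labelled mutant B, 8 of 165 ductal cells held 10 or more counts of the 15 acinar markers, from 11 to 773 counts and up to 20.2% of a cell's counts. Those 8 held 3189 of the 3223 acinar counts in its ductal cells, along with 83 counts of the 4 epithelial genes named above. Another 2 cells held 10 or more hemoglobin counts, up to 519 in 1 cell. The other 3 libraries had 0 such cells. Without the 10 cells, an alternative added after the data were seen, the acinar sum was 22.8 and 49.6 CPM in the libraries labelled mutant and 44.4 and 47.3 CPM in those labelled WT, and the interaction called 0 genes higher and 1 lower, Peg10, with an adjusted p of 0.0475 by edgeR. Nnat then had an adjusted p of 0.175. The unadjusted counts were then 139 higher and 51 lower. The comparison within ductal cells, fitted with no block for the set, stayed at 0 and 0 without the 10 cells. The share of ductal cells in the library labelled mutant B was then 6.49%. Whether the 10 barcodes are single cells or mixtures was not tested.

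**Figure D5:**
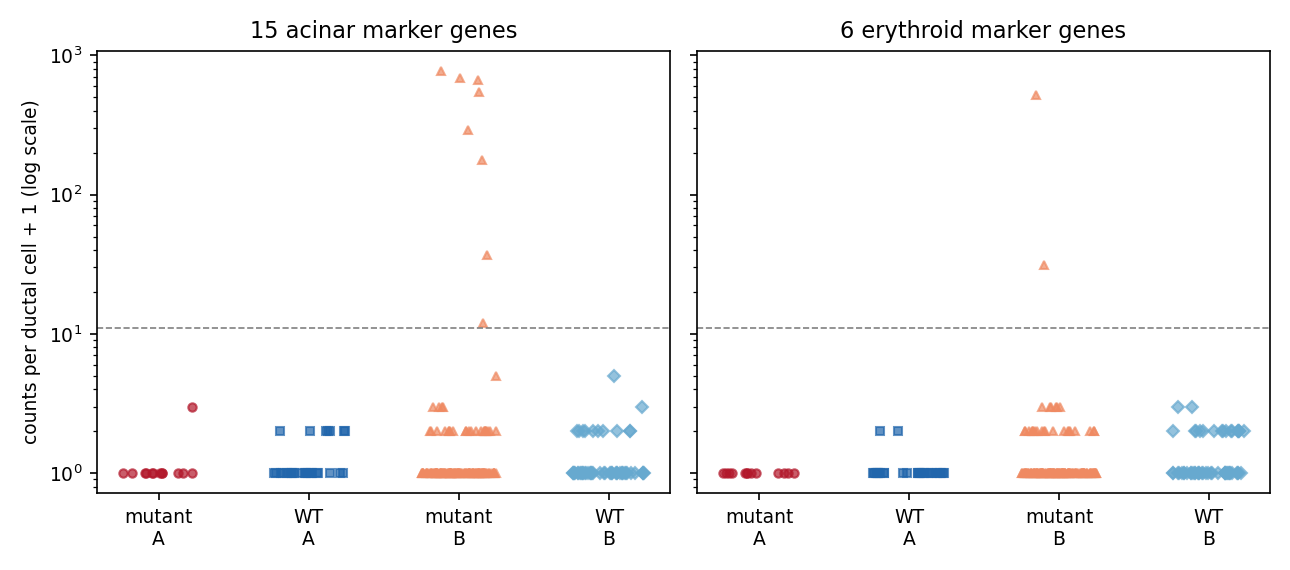
Counts of 15 acinar marker genes (left) and 6 erythroid marker genes (right) in each ductal cell, plus 1, on a log scale by library; the dashed line marks 10 counts. Above it lie 8 and 2 cells, all from the library labelled mutant B.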

How the data were processed

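Islet cells were encapsulated singly on the inDrop platform and libraries were made by CEL-Seq, per the labels' protocols. The authors deposited whole-number counts per gene and barcode for each of 4 libraries, not normalized. Per the submitters' processing notes, GRCm38 and GRCh38 were the genome builds. No source used here gives the aligner, annotation, counter, strand setting or treatment of molecular barcodes. The libraries held 1302 to 2445 barcodes and 9282495 to 12835199 counts each. Of 38459 features, the 38457 marked as mouse were used.

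Ductal counts were summed per library. They were compared with edgeR 4.0.16 in R 4.3.3 (quasi-likelihood F test, TMM factors, filterByExpr, Benjamini-Hochberg adjustment), and the scripts were tested on simulated data. The standard error is the log2 difference divided by the square root of F. The 15 genes of the cell rule were described and not tested. Shares used exact binomial intervals at 95% from scipy 1.17.1. Scrublet ran in scanpy 1.11.5 on each library, and called doublets were kept except in 1 alternative. Other kept cells means all kept cells of a library that are not ductal. Hormone-rich cells have the 4 hormones at 3% or more, and collagen-rich cells have 5 or more collagen counts with few hormone or endothelial counts. Alternatives were DESeq2 1.42.0, RLE factors, no count filter, stricter cell limits, doublets removed, a block for the set, and each library left out. The library is the replicate, so a p-value reflects how these libraries vary. Genes to name were the rule genes, the most abundant list members, the 15 highest by ductal to other ratio and the nearest to each threshold. The cells, the gene lists and the naming rule were chosen with earlier results of these data known. Some genes are not reported here and were left out of the lists and of the marker sums, but they stayed in the fits over all genes and in the counts from them.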

Additional observations from a re-analysis of the deposited data

Results flagged for a closer look

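Sin3a in ductal cells moved in opposite directions with the label, and the difference between the sets was not tested. Mutant over WT was 2.82 within set A and 0.312 within set B.

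The change with the label differed between ductal cells and the other kept cells, by the interaction test in edgeR, for 16 genes. Each value below is the log2 change in ductal cells minus that in the other cells. Where every ductal count of a label was 0 or near it, the fitted value depends on a small count added in the fit and sets no bound. Among acinar genes the differences were 13.02 for Cpa1, 12.65 for Cpb1, 10.95 for Sycn, 7.09 for 2210010C04Rik, 7.04 for Cela3b and 6.42 for Rnase1. They were 6.10 for Cel, 6.01 for Pnliprp1, 5.84 for Reg1, 5.54 for Clps and 5.52 for Ctrb1. Among hemoglobin genes they were 4.44 for Hbb-bt, 4.13 for Hba-a2 and 3.57 for Hbb-bs. Nnat had 2.36 and Peg10 had -10.10. For the 14 acinar and hemoglobin genes, the library labelled mutant B held 77 to 1567 ductal counts in 6 to 23 cells, against 0 to 15 counts in each of the other libraries. Nnat was counted in 26 ductal cells of the library labelled mutant B with at most 32 counts in 1 cell. Peg10 had 29 counts in the library labelled WT A, of which 1 cell held 28, and 3 counts in that labelled WT B.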

How the results depend on the processing

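The comparison of ductal sums called 0 genes higher and 0 lower under DESeq2, RLE factors, the stricter marker, hormone and mitochondrial limits and the removal of doublets. With no count filter edgeR called 13 higher and 1 lower. With a replicate block for the set (title ending) it called 3 higher (Bace2, Hbb-bs and Scg2, with Scg2 at 2.28 and Bace2 at 3.65 on the log2 scale) and 0 lower; the labels do not say that a set pairs libraries, although libraries of a set deviated together (correlation 0.445 over all genes tested and 0.719 over the 681 more abundant genes, those with a minimum of 20 ductal counts per library). Leaving out 1 library gave 2 to 21 higher and 0 to 4 lower. The interaction called 3 higher and 0 lower under DESeq2, and 3 to 17 higher and 0 to 1 lower without 1 library. Without the 10 cells holding acinar or hemoglobin counts, added after seeing the data, it called 0 higher. Those cells were chosen by markers that include called genes, so this largely follows from the choice. The share difference ran from -1.50 to 4.24 points without 1 library. The number of 4-fold genes was 266 at 5 counts per library, and 163 to 265 without 1 library. The Sin3a log2 difference of -0.04 became 0.051 under DESeq2 and 0.0071 without the 10 cells, and ran from -1.34 to 0.97 without 1 library. The causes were not tested. Of 136 values of single genes under alternatives, 129 kept direction and side of the threshold. The sum of the library labelled mutant A, 87838 counts over 13 cells, limits what can be detected.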

Other observations

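Some genes outside the groups above also set ductal cells apart in level, as a description with no test. Hhex, a homeobox factor of delta cells and of duct epithelium, had 638 and 681 CPM in the libraries labelled mutant and 431 and 727 CPM in those labelled WT in ductal cells, 7.61 to 24.6 times the other kept cells of the same library. Cryab, a small heat shock protein listed here among Schwann cell markers, had 159 and 167 CPM in the libraries labelled mutant and 146 and 183 CPM in those labelled WT, 5.75 to 14.2 times the other cells, while the Schwann markers Sox10 and Gfap were at 0. Apoe, a lipid carrier, had 1275 and 349.8 CPM in the libraries labelled mutant and 849 and 469.6 CPM in those labelled WT, 3.98 to 24 times the other cells.

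The class I genes did not share one pattern. H2-K1, which presents peptides to T cells, had 444 and 609 CPM in the libraries labelled mutant and 368 and 490.3 CPM in those labelled WT, 1.73 to 2.42 times the other cells, and H2-D1, a further class I heavy chain, had 262 and 277 CPM in the libraries labelled mutant and 184 and 174 CPM in those labelled WT, 0.45 to 0.984 times the other cells. Among the D-type cyclins, which drive entry into the cell cycle, Ccnd1 had 763 and 358 CPM in the libraries labelled mutant and 602 and 266 CPM in those labelled WT and 1.36 to 8.58 times the level of the other cells, whereas Ccnd2 had 865 and 717 CPM in the libraries labelled mutant and 488 and 792 CPM in those labelled WT and 0.54 to 0.678 times. Rest, a repressor of neuronal genes that can work with Sin3A, had 102 and 113 CPM in the libraries labelled mutant and 203 and 103 CPM in those labelled WT, 8.95 to 18 times the other cells, from 9 to 83 counts a library.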
